A study of Mus musculus with 8 samples.

Results

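Fibroblasts secrete cytokines and chemokines when they are stressed or injured, and 10 such genes were followed here in cultured mouse embryonic fibroblasts. They were taken by symbol from a read count table of 17910 genes, and all 10 had an entry: the interleukin-6 family cytokines Il6, Lif and Il11, the CC chemokines Ccl2 and Ccl7, the CXC chemokines Cxcl1, Cxcl5 and Cxcl12, the growth factor Csf1, and Ptx3, a secreted pentraxin. The cells were wild-type and bought from a cell collection, and there were 8 RNA libraries in 4 groups of 2. Control cells received neither compound, and the other groups received SRT1720, RSL3, or SRT1720 before RSL3. The label text gives 0.2 µM SRT1720 for 30 min and then 1 µM RSL3 for 2 h; it is the same for all samples, so the dose of SRT1720 given alone is taken from it. The names of all samples carry the time of 2 h. The extraction text in the labels names HT1080 cells and lung homogenates, not these fibroblasts. RSL3 inhibits GPX4, which removes lipid hydroperoxides, and is used to start ferroptosis, a cell death by lipid peroxidation. SRT1720 is sold as an activator of the deacetylase SIRT1. Whether the libraries of a group came from separate cultures is not stated, so each p-value rests on a spread between libraries that may be technical.

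Interleukin-6, LIF and interleukin-11 bind their own receptor chains and signal together with the shared chain gp130, encoded by Il6st, to JAK kinases and STAT3. Chemokines are small secreted proteins that attract leukocytes through receptors on those cells: CCL2 and CCL7 attract monocytes, CXCL1 and CXCL5 attract neutrophils, and CXCL12 retains stem cells and lymphocytes in tissue through CXCR4. CSF1 keeps macrophages alive, and PTX3 binds microbes and complement components and is incorporated into extracellular matrix. Many genes of this kind are controlled by NF-kB, by AP-1 and C/EBP factors, and by the rate at which their mRNA is degraded.

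Libraries held 20579122 to 21287620 counts, and 12618 genes passed a filter on low counts and were tested. Of the 10 genes 9 passed that filter, Cxcl1 and Cxcl5 with few reads, and Il6 did not. Fibroblast markers were present in all libraries, with 9 of 10 listed markers analysed and a summed level of 7142 and 8625 CPM in control, 6355 and 6761 CPM in SRT1720, 8716 and 10276 CPM in RSL3 and 7597 and 7618 CPM in SRT1720 plus RSL3 cells (counts scaled to library size, with TMM factors for composition), although the matrix gene Dcn stayed under 1 CPM. Macrophage markers summed to 16.1 and 19.8 CPM in control, 26.7 and 29.2 CPM in SRT1720, 28.0 and 36.8 CPM in RSL3 and 33.7 and 36.4 CPM in SRT1720 plus RSL3 cells, carried mostly by Cd14 and Cd68, while the leukocyte marker Ptprc was at 0 to 0.0882 CPM and Itgam at 0.0505 to 0.215 CPM. Summed endothelial markers were at 1.68 and 2.49 CPM in control, 5.64 and 6.13 CPM in SRT1720, 4.11 and 5.62 CPM in RSL3 and 10.2 and 10.7 CPM in SRT1720 plus RSL3 cells. Epithelial markers summed to 1.06 to 1.45 CPM in the other 3 groups and to 2.50 and 3.72 CPM in SRT1720 plus RSL3 cells, and neutrophil markers between 0.657 and 1.53 CPM (Mpo at 0). The part of these markers in the results was not tested. In bulk RNA, fewer cells of a type and less RNA per cell cannot be told apart.

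The libraries of a group were less alike in control and RSL3 cells than in the others, and chemokine genes were among those that differed. Over 9723 genes the log2 difference between the libraries of a pair had an SD of 0.26 in control, 0.31 in RSL3, 0.16 in SRT1720 and 0.17 in SRT1720 plus RSL3 cells. Ccl2, Ccl7, Cxcl1 and Cxcl5 were lower in the second library than in the first in both of the wider pairs, by 0.83, 0.68, 0.68 and 1.32 on the log2(CPM + 0.5) scale in control and by 1.14, 0.89, 0.51 and 1.07 in RSL3 cells. Across 9520 genes with a transcript record the control difference had a Spearman rho of -0.38 with GC content and 0.24 with transcript length, and the RSL3 difference a rho of -0.47 and 0.29. The rho values were 0.18 and 0.08 for SRT1720, and for SRT1720 plus RSL3 they were 0.37 and -0.54, opposite in sign to control and RSL3. Ccl2 and Ccl7 have transcripts of 0.813 and 0.801 kb against a median of 3.16 kb over those genes, and a GC content of 43.4% and 42.9% against a median of 50.4%. In control and RSL3 cells, genes of low GC content tended to be higher in the second library, and genes with short transcripts tended to be lower there. Ccl2 and Ccl7, with short transcripts of low GC content, were lower there. The part of length or GC content in the chemokine values was not tested.

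**Figure D1:**
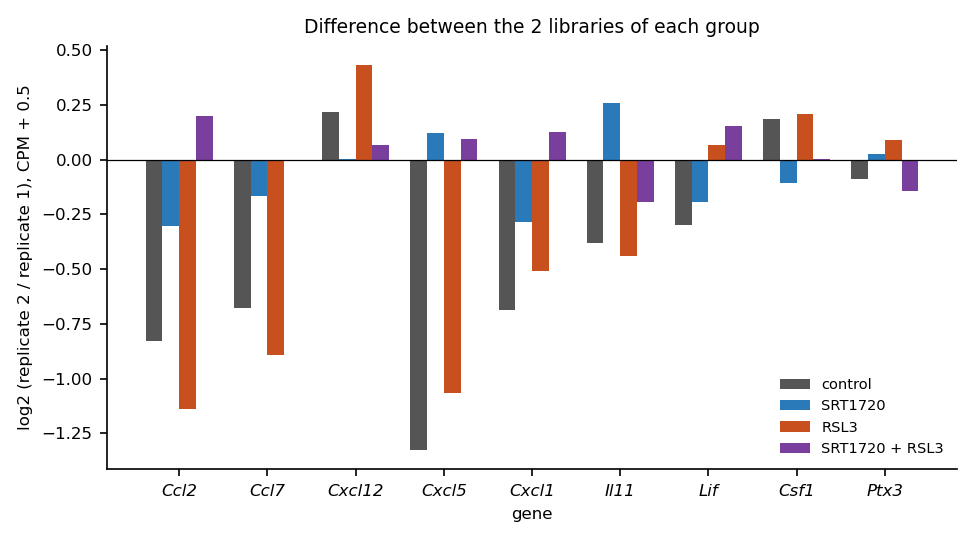
The y axis gives the log2 ratio of the second to the first library of each group (CPM + 0.5) for the 9 tested genes on the x axis, with a bar for each of the 4 groups. Ccl2, Ccl7, Cxcl5 and Cxcl1 have the longest downward bars, in control and RSL3 cells.

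RSL3 raised Il11 and Lif and lowered Cxcl12, Csf1 and Ptx3, while SRT1720 on its own raised Lif and lowered Ptx3. For RSL3 against control, 2 of 9 tested members rose and 3 fell at an edgeR adjusted p under 0.05, against 18.3% and 17.5% of all 12618 tested genes (35.8% in either direction). SRT1720 against control had 1 member up and 1 down, against backgrounds of 1.1% and 0.206% (1.31% in either direction). That background of 165 genes was 403 with DESeq2, 9 or 10 without either SRT1720 library, 30 without the second control library, 56 or 60 without either library with both compounds and 502 or 511 without either RSL3 library. Adding SRT1720 to RSL3 left 1 member higher and 2 lower than RSL3 alone, where 11.4% and 8.75% of all genes were called (20.2% together). In pretreated cells RSL3 had 1 member higher and 4 lower than SRT1720 alone, where 12.3% and 9.06% were called (21.3% together). Cells with both compounds had 2 members higher and 3 lower than control, against 17.4% and 14.1% (31.5% together). The median log2 change of the 9 members was -0.58, 0.11, -0.18, -0.52 and -0.29 in these comparisons in turn, and that of all tested genes lay between -0.01 and 0.01. Comparisons with control share its libraries, and those of SRT1720 plus RSL3 share that group. With library size in place of TMM the median of all genes moved by -0.28 for RSL3 against control, and 1220 genes were called higher and 4675 lower in place of 2308 and 2203. The same change moved the median by -0.21 and -0.23 for both compounds against SRT1720 and against control, with 894 higher and 3066 lower in place of 1549 and 1143, and 1290 and 4017 in place of 2191 and 1780. For both compounds against RSL3 it gave 1735 and 885 in place of 1442 and 1104, and for the interaction, described further on, 600 and 284 in place of 436 and 368; the medians of these moved by 0.06 and 0.08. All 22 member calls kept their direction and passed with library size only.

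**Figure D2:**
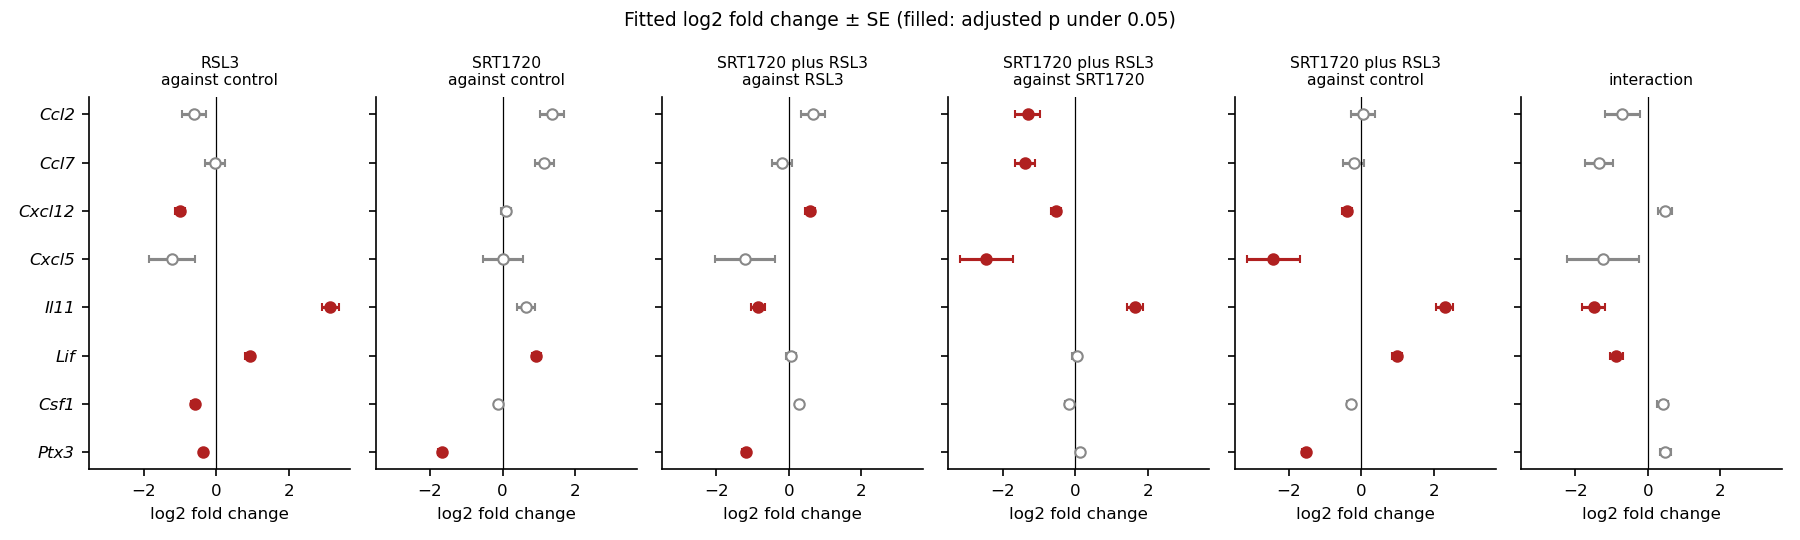
Each panel is a comparison (the last is the effect of SRT1720 with RSL3 minus that without), the x axis is the fitted log2 fold change and the bars are its SE, for the 8 tested members other than Cxcl1, whose counts were too few for a fold. Filled red points have an adjusted p under 0.05: Il11 lies farthest to the right after RSL3 (3.14) and Ptx3 lies left of 0 in the comparisons of SRT1720 with control (-1.66) and of both compounds with RSL3 (-1.18).

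Il11 rose after RSL3, and less so when SRT1720 was given first. Interleukin-11 is known as a driver of fibroblast activation in fibrosis. Il11 (NCBI Gene ID 16156) was at 2.48 and 1.79 CPM in the control libraries, 3.02 and 3.71 with SRT1720, 21.96 and 16.1 with RSL3, and 11.3 and 9.79 with both compounds. All 4 libraries with RSL3 lay above all 4 without it, and the libraries with both compounds lay between the RSL3 libraries and the rest. The rise after RSL3 was 8.81-fold (log2 3.14 ± 0.23 SE, n = 2 a group, edgeR adjusted p = 8.22e-06), and in cells pretreated with SRT1720 it was 3.14-fold (1.65 ± 0.22, edgeR adjusted p = 0.000872). With SRT1720 alone Il11 was at 1.56-fold of control and did not pass (0.64 ± 0.25, edgeR adjusted p = 0.297). Adding SRT1720 to RSL3 lowered it (-0.85 ± 0.20, edgeR adjusted p = 0.0156), a call that ended without RSL3 replicate 1 (-0.59) or SRT1720 plus RSL3 replicates 1 (-0.94) or 2 (-0.75). Il11 was the only member whose counts were not whole numbers.

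Lif (16878), which encodes leukemia inhibitory factor, rose in all 3 treated groups, to levels that overlapped. It was at 30.99 and 25.1 CPM in control, 57.0 and 49.8 with SRT1720, 51.7 and 54.2 with RSL3, and 52.2 and 58.1 with both. Every treated library lay above both control libraries, and each treated group overlapped the other 2. Lif rose 1.89-fold after RSL3 (0.92 ± 0.13, edgeR adjusted p = 0.00051), 1.91-fold after SRT1720 (0.93 ± 0.13, edgeR adjusted p = 0.0117) and 1.97-fold with both (0.98 ± 0.13, edgeR adjusted p = 0.000489). Between both compounds and RSL3 alone the difference was 0.06, with a 95% interval of -0.23 to 0.35, and between both compounds and SRT1720 alone it was 0.05 (-0.24 to 0.33). The call after SRT1720 alone ended without control replicate 2 (0.79), SRT1720 replicate 1 (0.83) or SRT1720 replicate 2 (1.02).

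Il6 (16193), the acute-phase cytokine, was barely detected. It had 7 and 1 counts in control, 7 and 11 with SRT1720, 1 and 3 with RSL3 and 5 and 7 with both compounds. Control overlapped RSL3 and the combination, the combination lay above RSL3 alone, and the level was at most 0.485 CPM. With no low-count filter Il6 could be tested, and in edgeR it passed in 0 comparisons, at unadjusted p of 0.153 to 0.814, so 0 were under 0.05 before adjustment.

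The DNA before the Il11 and Lif start sites is shown because these members rose after RSL3, and that of Ptx3 because it moved the other way. The windows run from 250 bases before to 50 after a RefSeq start on GRCm38.p6, and 7 of the 10 members had one. Il11 had 2 and the one with the motif is given, chr7:4778092-4778391 on the minus strand. Lif lies at chr11:4257318-4257617 and Ptx3 at chr3:66219637-66219936, both on the plus strand. Capitals mark matches on either strand to AP-1 (TGANTCA), C/EBP (TTGNGCAA), the composite C/EBP-ATF site (TGATGNAA) or the kappaB motif.
Il11: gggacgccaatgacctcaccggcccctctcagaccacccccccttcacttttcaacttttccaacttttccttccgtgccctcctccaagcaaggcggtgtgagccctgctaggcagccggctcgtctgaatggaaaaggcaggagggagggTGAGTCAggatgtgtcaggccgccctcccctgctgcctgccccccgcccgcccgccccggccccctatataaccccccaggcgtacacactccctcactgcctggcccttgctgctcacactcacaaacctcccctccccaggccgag
Lif: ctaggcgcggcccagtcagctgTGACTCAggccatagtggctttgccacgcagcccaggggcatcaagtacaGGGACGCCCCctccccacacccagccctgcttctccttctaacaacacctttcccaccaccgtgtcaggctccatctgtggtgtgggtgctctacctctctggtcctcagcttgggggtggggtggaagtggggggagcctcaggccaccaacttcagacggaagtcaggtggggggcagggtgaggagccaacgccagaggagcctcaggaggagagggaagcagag
Ptx3: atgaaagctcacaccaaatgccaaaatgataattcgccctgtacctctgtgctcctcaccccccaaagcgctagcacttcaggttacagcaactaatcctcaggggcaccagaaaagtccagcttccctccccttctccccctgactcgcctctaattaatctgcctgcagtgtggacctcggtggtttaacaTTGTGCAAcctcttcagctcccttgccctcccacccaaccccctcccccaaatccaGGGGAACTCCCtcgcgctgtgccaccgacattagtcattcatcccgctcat

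The Il11 window holds an AP-1 match 98 bases before the start, and the Lif window an AP-1 match 228 bases and a kappaB match 178 bases before it. The Ptx3 window holds a C/EBP match 57 bases before the start and a pair of overlapping kappaB matches at the start itself. Of 32851 such windows of mouse genes, 7.81% held the AP-1 motif, 2.94% the C/EBP motif, 3.97% the composite motif and 8.46% the kappaB motif. Among the other members with a window, Il6 held AP-1, C/EBP and kappaB matches, Cxcl1 and Csf1 kappaB matches, and Cxcl12 none of the 4 motifs. A match is a description of letters, and no binding was measured.

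The monocyte attractants Ccl2 and Ccl7, neighbours on chromosome 11, were highest with SRT1720 alone and were lower when RSL3 was given as well. Ccl2 (20296) was at 179.7 and 100.95 CPM in control, 398.3 and 322.7 with SRT1720, 126.3 and 57.2 with RSL3, and 134.98 and 155.3 with both compounds. Ccl7 (20306) was at 28.1 and 17.4 CPM in control, 53.6 and 47.8 with SRT1720, 29.0 and 15.4 with RSL3, and 19.5 and 19.6 with both. For both genes the SRT1720 libraries lay above all 6 others, and the other 3 groups overlapped apart from Ccl2 with both compounds, which lay above RSL3 alone. Their levels had a Pearson r of 0.92 across the 8 libraries on the log2 scale.

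Against SRT1720 alone, Ccl2 fell in the combination 2.48-fold (-1.31 ± 0.34, edgeR adjusted p = 0.0214) and Ccl7 2.59-fold (-1.37 ± 0.28, edgeR adjusted p = 0.00692). Leaving out the first SRT1720 library ended both calls (-1.15 and -1.29), as did leaving out the first (-1.22 and -1.38) or the second (-1.42 and -1.37) library with both compounds. Without the second SRT1720 library the call of Ccl2 ended (-1.46). SRT1720 against control gave 2.57-fold for Ccl2 (1.36 ± 0.34, edgeR adjusted p = 0.0964) and 2.23-fold for Ccl7 (1.16 ± 0.27, edgeR adjusted p = 0.0805), and neither passed. Of 18 alternatives, Ccl2 passed in 6 and Ccl7 in 9, the crossed replicate block described further on among them. Both passed with the libraries of these groups compared on their own (1.36 and 1.15), and with the first libraries of control and RSL3 in place of both (1.00 and 0.85). RSL3 against control gave -0.61 ± 0.34 for Ccl2 (edgeR adjusted p = 0.189) and -0.04 for Ccl7, with a 95% interval of -0.66 to 0.59. Ccl2 passed at -1.32 without the first RSL3 library and at -0.51 without both second libraries of control and RSL3. Without the first RSL3 library the combination was also above RSL3 for Ccl2 (1.36, against 0.66 with all libraries). Ccl7 ranged from -0.58 without the first RSL3 library to 0.35 without the first control library.

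The neutrophil attractants had few reads, and Cxcl5 was lower with both compounds than in control or SRT1720 cells. Cxcl5 (20311) had 64 and 18 counts in control, 38 and 43 with SRT1720, 23 and 6 with RSL3, and 6 and 7 with both compounds. The combination lay below SRT1720 alone and below control, by a log2 of -2.44 ± 0.72 (edgeR adjusted p = 0.0383) and -2.42 ± 0.72 (edgeR adjusted p = 0.0296). Both calls ended with limma-voom (-2.38 and -2.11) and on leaving out any one library of the SRT1720 or combination groups (-2.56 to -2.33 and -2.55 to -2.32), and the second ended without the first control library (-1.27). The combination overlapped RSL3 alone (-1.21 ± 0.82, edgeR adjusted p = 0.333), and RSL3 alone overlapped control (-1.21 ± 0.63, edgeR adjusted p = 0.167). Neither difference passed with all libraries. That of RSL3 from control ranged from -2.49 to -0.06 over the alternatives and passed in 3, and that of the combination from RSL3 passed in 1 (-1.87). Each of these alternatives left a group with a lone library. Cxcl1 (14825), which follows Cxcl15 and precedes Cxcl2 on chromosome 5, had 17 and 6 counts in control, 12 and 8 with SRT1720, 4 and 0 with RSL3, and 1 and 2 with both. Its RSL3 libraries lay below those of control, but with all libraries it passed in 0 comparisons in edgeR, at unadjusted p of 0.0238 to 0.849. It did pass in some alternatives: in 5 for both compounds against control (among them library size only, edgeR adjusted p = 0.0408, and without both second libraries of control and RSL3, 0.00781), and in 2 each for RSL3 against control and for both compounds against SRT1720. The alternatives in each case include a crossed replicate block, described further on, that was chosen after seeing the data. A count of 0 in RSL3 replicate 2 allows a level of up to 0.158 CPM (3 counts), which covers counting error only.

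RSL3 lowered Cxcl12 and Csf1, and with SRT1720 given first Cxcl12 stood above its level with RSL3 alone. Cxcl12 (20315), which retains cells that carry CXCR4, was at 159.1 and 185.0 CPM in control, 185.1 and 185.7 with SRT1720, 73.7 and 99.7 with RSL3, and 126.4 and 132.6 with both compounds. The groups with RSL3 lay below those without it, and the combination lay above RSL3 alone. Cxcl12 fell 1.98-fold after RSL3 (-0.99 ± 0.14, edgeR adjusted p = 0.000476), and the combination stood 1.49-fold above RSL3 alone (0.58 ± 0.14, edgeR adjusted p = 0.018). The combination was lower than SRT1720 alone (-0.52 ± 0.14, edgeR adjusted p = 0.0245) and than control (-0.41 ± 0.14, edgeR adjusted p = 0.0467).

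Of these Cxcl12 calls, that of RSL3 against control held in all alternatives run. The call against RSL3 ended with those libraries on their own (0.57) or without either library of the combination (0.63 and 0.54). That against SRT1720 ended on leaving out any one library of the SRT1720 or combination groups (-0.55 to -0.49). That against control ended for the same 4 libraries (-0.45 to -0.38) and without the second control library (-0.30).

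Csf1 (12977), the macrophage growth factor, was at 1054 and 1199.5 CPM in control, 1077 and 1001 with SRT1720, 698.3 and 807.2 with RSL3, and 918.8 and 921.3 with both compounds. The RSL3 libraries lay below all 6 others, and the combination lay between RSL3 alone and the groups without RSL3. Csf1 fell after RSL3 (log2 -0.58 ± 0.10, edgeR adjusted p = 0.00202). The combination differed from RSL3 alone by 0.29 ± 0.10 (edgeR adjusted p = 0.0799) and from control by -0.29 ± 0.10 (edgeR adjusted p = 0.0576), and neither passed. The difference from RSL3 passed in 4 alternatives and that from control in 6, with library size only in both (0.35 and -0.52) and with DESeq2 in the second (-0.30). Both sets of alternatives include the crossed replicate block. The difference of the combination from SRT1720 alone passed with library size only (-0.38). Csf1 and Cxcl12 had a Pearson r of 0.95 across the 8 libraries.

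Ptx3 (19288) was lower in every library that had received SRT1720, whether or not RSL3 followed. It was at 74.2 and 69.7 CPM in control, 22.6 and 22.98 with SRT1720, 54.6 and 58.2 with RSL3, and 26.1 and 23.7 with both compounds. The 4 libraries with SRT1720 lay below the 4 without it, and RSL3 alone lay below control. SRT1720 lowered Ptx3 3.16-fold without RSL3 (-1.66 ± 0.11, edgeR adjusted p = 0.000193) and 2.27-fold with it (-1.18 ± 0.11, edgeR adjusted p = 0.000153). These calls held in all alternatives run, as did that of both compounds against control (-1.53 ± 0.11, edgeR adjusted p = 8.68e-06). The fall after RSL3 alone was 1.28-fold (-0.35 ± 0.10, edgeR adjusted p = 0.022), and it did not pass with those libraries on their own (-0.37) or without control replicate 1 (-0.31) or RSL3 replicate 1 (-0.33). Between the combination and SRT1720 alone the difference was 0.13 (95% interval -0.11 to 0.37), a value that was -0.08 with library size only.

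**Figure D3:**
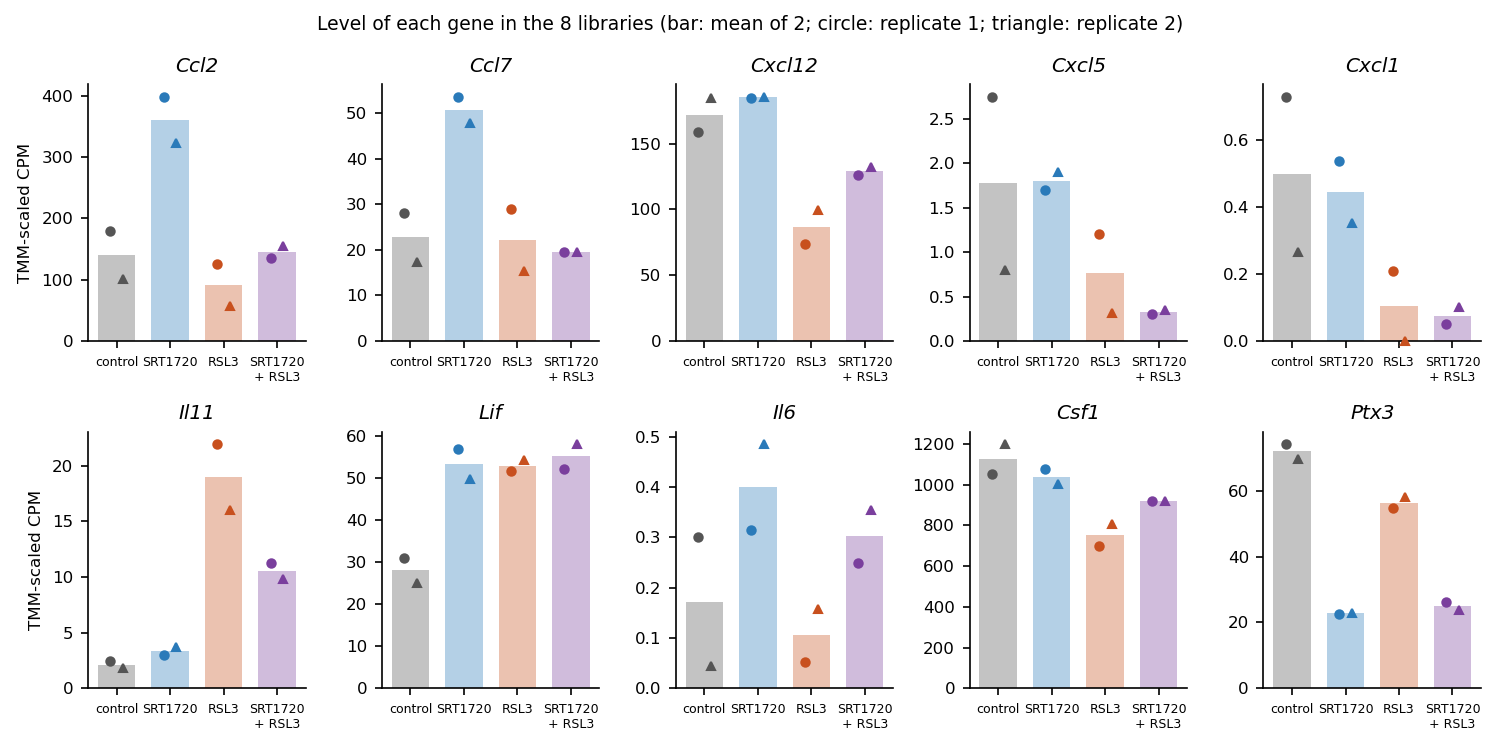
Each panel gives the TMM-scaled CPM of a gene on the y axis for the 4 groups on the x axis, with the mean of 2 libraries as a bar, the first library as a circle and the second as a triangle. Il11 is high in the RSL3 libraries (21.96 and 16.1 CPM), Ccl2 and Ccl7 in the SRT1720 libraries, and Ptx3 is low in the 4 libraries with SRT1720.

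Whether SRT1720 acted differently with and without RSL3 was asked by the interaction: the log2 difference of the combination from RSL3, less that of SRT1720 from control. Lif and Il11 passed, both in the negative direction, and 0 members passed in the positive direction in edgeR, against 2.92% and 3.46% of all genes (6.37% together). At unadjusted p under 0.05, 6 of the 9 members passed, against 21.2% of all genes, and the median over the 9 was -0.70, against -0.02 over all genes. For Lif the effect of SRT1720 was 0.93 without and 0.06 with RSL3 (difference -0.87 ± 0.18, edgeR adjusted p = 0.0229). For Il11 it was 0.64 and -0.85 (difference -1.49 ± 0.32, edgeR adjusted p = 0.0249). Both calls ended without the second control library (-0.73 and -1.28) and on leaving out any one library of the SRT1720 or combination groups (-0.96 to -0.77 and -1.63 to -1.33). Ccl7 did not pass at -1.34 ± 0.39 (edgeR adjusted p = 0.0773), and passed in 6 alternatives, DESeq2 (-1.34) and the crossed replicate block among them. Ptx3 was at 0.48 ± 0.15 (edgeR adjusted p = 0.0907), Csf1 at 0.41 ± 0.15 (0.145), Cxcl12 at 0.47 ± 0.20 (0.199) and Ccl2 at -0.70 ± 0.47 (0.448). Of these, Cxcl12 passed in 2 alternatives, Ptx3 and Ccl2 in 1 each and Csf1 in 0, and all of those passes left out the second RSL3 library.

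**Figure D4:**
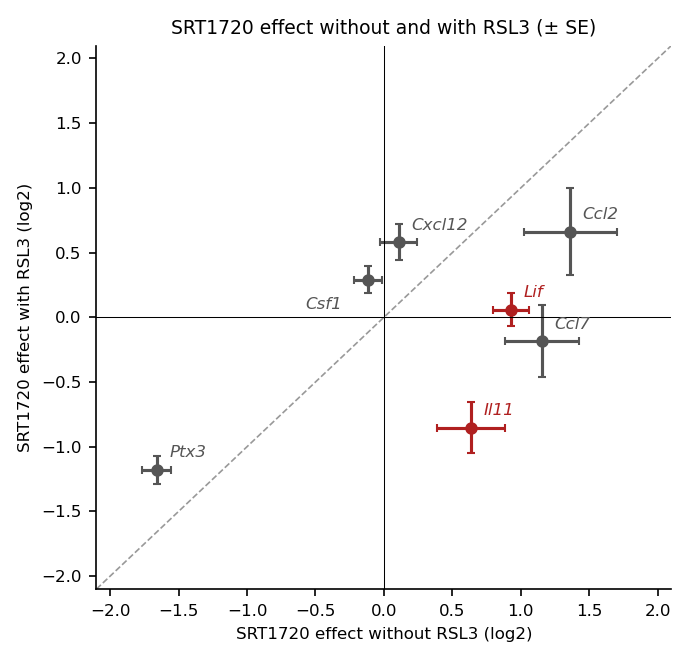
The x axis is the log2 effect of SRT1720 without RSL3 and the y axis its effect with RSL3, with SE bars, for 7 members (Cxcl1 and Cxcl5 had too few counts). Lif and Il11, in red, passed the test of the difference and lie below the dashed line of equal effects. Ptx3 lies at -1.66 and -1.18.

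Per kilobase of transcript the members ranged over several orders of magnitude. In control cells Csf1 was at 269.8 ± 24.7 CPM per kb (SD, n = 2) and Ccl2 at 172.6 ± 68.5, followed by Ptx3 at 37.9 ± 1.66, Cxcl12 at 30.6 ± 3.26 and Ccl7 at 28.4 ± 9.47. Lif was at 6.96 ± 1.04, Cxcl5 at 1.12 ± 0.876, Il11 at 1.10 ± 0.250, Cxcl1 at 0.522 ± 0.344 and Il6 at 0.151 ± 0.159 CPM per kb. The control libraries of Cxcl12 and Ccl7 overlapped, and those of Cxcl5 overlapped both Il11 and Cxcl1, so the order within these is not resolved. With SRT1720 Ccl2 had the highest level, 443.4 ± 65.8 against 248.8 ± 12.8 CPM per kb for Csf1, and Ptx3, at 11.9 and 12.1, was under Lif, at 12.4 and 14.2. With RSL3 Il11 reached 9.76 ± 2.14 CPM per kb.

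The counts in the gene lists that follow stand against the shares of all genes called higher and lower: 18.3% and 17.5% after RSL3, 1.1% and 0.206% after SRT1720, and for both compounds 11.4% and 8.75% against RSL3, 12.3% and 9.06% against SRT1720 and 17.4% and 14.1% against control. Of the receptors and signal transducers of these ligands 9 were tested, and after RSL3 4 rose and 0 fell in edgeR, where 35.8% of all genes were called (median log2 0.38, all genes 0.01). Those with the smallest p were Ackr3, the atypical receptor of CXCL12, which went from 14.2 ± 1.36 to 34.8 ± 7.30 CPM (1.30 ± 0.17, edgeR adjusted p = 0.000264), Csf1r, the receptor of CSF1 and also a macrophage marker, at 0.933 and 2.63 CPM (1.49 ± 0.30), and the interleukin-6 receptor chain Il6ra, at 5.82 and 10.95 CPM (0.91 ± 0.22). Ackr3 also rose after SRT1720 (0.91 ± 0.17, edgeR adjusted p = 0.0293), as the single receptor called there, and its interaction was -1.08 ± 0.23 (edgeR adjusted p = 0.0242). The shared chain gene Il6st was at 96.4 to 136.7 CPM in all libraries. With both compounds, Il11ra1, the interleukin-11 receptor chain, was lower than with RSL3 (-0.52 ± 0.16, edgeR adjusted p = 0.0475), where 0 receptors were higher in edgeR. Against SRT1720 2 rose and 0 fell, and against control 2 rose and 1 fell.

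Among 13 genes of interleukin-6 family signalling, 4 rose and 1 fell after RSL3 (median 0.06). Of all genes 18.3% rose and 17.5% fell, and the number called was near the 35.8% for either direction. Pim1, a kinase gene induced by STAT3, was at 2.51 ± 0.15, Socs3, the feedback inhibitor of gp130 signalling, at 2.11 ± 0.13, and the transcription factor gene Cebpb at 2.57 ± 0.18. With SRT1720 alone 0 passed in edgeR (median 0.19). Socs3 went from 83.7 ± 5.37 CPM with RSL3 to 39.9 ± 1.16 with both compounds (-1.07 ± 0.12, edgeR adjusted p = 0.000529), while Cebpd (1.24 ± 0.20) and Pim1 (0.57 ± 0.14) rose. In that comparison 3 were higher and 2 lower. Against SRT1720 3 were higher and 1 lower, and against control 4 and 2. The interaction called Socs3 (-1.40 ± 0.18, edgeR adjusted p = 0.00253) and 0 in the other direction. Of all genes it called 2.92% negative and 3.46% positive.

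Among 18 tested NF-kB subunits and feedback genes, 3 rose and 3 fell after RSL3 (median -0.05), again near the 35.8% of all genes called. The co-activator Nfkbiz rose (1.61 ± 0.15), and the inhibitor genes Tnfaip3 (-1.39 ± 0.17) and Nfkbie (-1.51 ± 0.27) fell. With SRT1720 alone 0 passed in edgeR (median 0.20). Tnfaip3 was at 14.1 ± 3.06 CPM with RSL3 and 63.0 ± 4.12 with both compounds (2.16 ± 0.17, edgeR adjusted p = 9.38e-05), and its interaction was 2.13 ± 0.23 (edgeR adjusted p = 0.00116). Nfkbiz went the other way, with an interaction of -0.92 ± 0.20 (edgeR adjusted p = 0.0273). The combination had 3 up and 1 down against RSL3, 5 and 3 against SRT1720, and 7 and 1 against control.

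Of 11 factors that control the decay or stability of cytokine mRNA, 4 rose and 0 fell after RSL3 in edgeR (median 0.30). Of all genes 18.3% rose and 17.5% fell, and the number called was near the 35.8% for either direction. Zfp36, which encodes the decay factor tristetraprolin, was at 17.3 ± 0.528 CPM in control, 20.6 ± 2.52 with SRT1720, 319.2 ± 9.43 with RSL3 and 72.6 ± 2.15 with both compounds. Its relative Zfp36l1 was at 84.7 ± 5.14, 102.9 ± 7.20, 290.7 ± 1.42 and 130.9 ± 1.99 CPM, and Roquin-1 (Rc3h1) rose after RSL3 by 1.46 ± 0.11. Adding SRT1720 to RSL3 lowered 5 and raised 1 (median -0.35), with Zfp36 at -2.14 ± 0.11 and Zfp36l1 at -1.15 ± 0.09. Zc3h12a, which encodes the endonuclease Regnase-1, was the single gene called after SRT1720 alone (0.70 ± 0.13, edgeR adjusted p = 0.0289), and the combination lowered it against SRT1720 (-1.24 ± 0.13, edgeR adjusted p = 0.000205). In the interaction 4 were negative and 0 positive in edgeR, against 2.92% and 3.46% of all genes, with Zfp36 at -2.39 ± 0.15. Against SRT1720 4 rose and 1 fell, and against control 4 and 1.

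Of 4 tested genes for other humoral pattern recognition proteins and complement, 2 rose after RSL3, where 18.3% of all genes rose: Nptx1, a neuronal pentraxin (2.61 ± 0.40, edgeR adjusted p = 0.00081), and Tnfaip6, a hyaluronan-binding protein gene that works with PTX3 in matrix (1.75 ± 0.43, edgeR adjusted p = 0.0113). With SRT1720 alone 0 passed in edgeR. The combination had 2 up against SRT1720, 1 up against control and 0 called against RSL3 in edgeR.

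The genes whose pattern was most like a member's were found by Pearson's r over the 8 libraries (log2 scale), among 9722 or 9723 genes with a mean of at least 5 CPM. For Ptx3 they were Tnrc18 (0.98) and Epb41l4a (0.96), for Il11 Pnrc1 and Zfp747 (each rounding to 1.00), and for Lif Anxa5 (0.99) and Gabarapl2 (0.97). For Ccl2 they were Proser3 and Septin9 (each 0.98), for Ccl7 Pcdhga12 (0.98) and Lrp11 (0.96), and for Cxcl12 Thtpa and Ndufaf4 (each 0.99). For Csf1 they were Dph5 and Zcchc10 (each 0.99), for Cxcl5 Slc44a1 and Tsc22d4 (each 0.97), and for Cxcl1 Rgl2 and Pgpep1 (each 0.98). The libraries are shared by all genes, so these values describe likeness only.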

How the data were processed

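The deposited table holds expected counts (estimated read counts, 76.6% to 77.7% of them whole numbers) from TruSeq Stranded mRNA libraries, per the labels. The sources used here do not name an aligner, counter or build. Columns were matched to libraries by name (no suffix, replicate 1; with suffix, replicate 2), and only the RSL3 names are spelled alike in both. Counts were rounded and fitted with edgeR 4.0.16 (R 4.3.3, limma 3.58.1; DESeq2 1.42.0 as an alternative): TMM, filterByExpr by group, glmQLFit with a mean for each of 4 groups over all 8 libraries, two-sided quasi-likelihood tests, Benjamini-Hochberg over 12618 genes, threshold 0.05. The model had 4 residual and 5.73 prior degrees of freedom, and the common dispersion of 0.0112 is a variation of 10.6% between libraries. SE is the log2 change over the square root of F. Code was tested on simulated data. The 10 members were named in every comparison. Of each context list the up to 3 passing genes with the smallest p could be named, and the 2 nearest patterns of each member; Dcn, Ptprc, Itgam, Il6st and Cd14 were named after their values were seen. Members and lists were chosen with earlier results of these data known. Kilobases are those of the longest GENCODE M21 transcript linked to a RefSeq mRNA, and promoters are from RefSeq (GRCm38.p6).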

Additional observations from a re-analysis of the deposited data

Results flagged for a closer look

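The effect of SRT1720 differed with and without RSL3 for 2 of the 9 tested members by the test of the difference itself, where 6.37% of all genes were called. Both calls ended without the second control library and on leaving out any one library of the SRT1720 or combination groups. For Lif the log2 difference was -0.87 (SE 0.18, edgeR adjusted p = 0.0229, range 0.00129 to 0.131 over the alternatives). For Il11 it was -1.49 (SE 0.32, edgeR adjusted p = 0.0249, range 0.00354 to 0.127).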

How the results depend on the processing

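Of 22 member calls over the 6 comparisons, 10 held in all alternatives run and 12 ended in at least 1, and of 32 values that were not called 18 passed somewhere. The matching shares over all genes were not counted, so these numbers are no result about the members. No called value changed sign. Of the single-member values, 30 changed sign, none of them called with all libraries. The labels name no batch, donor or day, so the main fit had no block and did not pair the samples by replicate number. The first and second libraries of control and RSL3 differed in the same way (r = 0.69 over 9723 genes), which the main fit took no account of. Those of SRT1720 did not follow them (r = 0.04 and -0.0004). With a replicate block 4 members passed in SRT1720 against control instead of 2, and 5, 3, 5, 5 and 3 in the other comparisons in turn. That block called 203 of all genes in SRT1720 against control instead of 165, and 4570, 2577, 2713, 4024 and 789 in the others. A crossed replicate block was chosen after seeing the data, since the combination went against control and RSL3 (r = -0.28 and -0.36). It is counted among the alternatives. It gave 4 members for SRT1720 against control, 5 for both compounds against RSL3 and 7 for RSL3 against control. Of all genes it called 500, 3459 and 5197 there, instead of 165, 2546 and 4511. With only the libraries compared 4 members passed in SRT1720 against control, where 286 of all genes were called. The interaction needs all groups and could not be fitted so. Without both second libraries of control and RSL3, 4 passed in SRT1720 against control, 6 in both compounds against RSL3 and 6 in the interaction, where 394, 2797 and 1224 of all genes were called instead of 165, 2546 and 804. On leaving out 1 library at a time, the number that passed ranged from 4 to 7 in RSL3 against control, 1 to 4 in SRT1720 against control, 1 to 4 in both compounds against RSL3, 1 to 5 against SRT1720, 3 to 7 against control and 0 to 4 in the interaction. The number of all genes called moved as well, from 3330 to 4519, 9 to 511, 846 to 3482, 1041 to 3542, 2047 to 4940 and 183 to 1247 in turn, so these ranges are no result about the members. A lone library is then assumed to vary like the other groups.

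Uncalled log2 values changed sign as follows, and the cause was not tested. With library size only, Cxcl5 was at -0.011 in SRT1720 against control, Lif at -0.16 and Ptx3 at -0.078 in both compounds against SRT1720, and Ccl2 at -0.19 in both compounds against control. With limma-voom Cxcl1 was at 0.30 in both compounds against RSL3 and 0.33 in the interaction. Without both second libraries of control and RSL3, Ccl7 was at 0.044 in RSL3 against control, Cxcl5 at -0.61 in SRT1720 against control and Ccl2 at -0.31 in both compounds against control. With 1 library left out at a time, RSL3 against control ranged from -0.58 to 0.35 for Ccl7, and SRT1720 against control from -0.71 to 0.73 for Cxcl1 and -0.61 to 1.17 for Cxcl5. Both compounds against RSL3 ranged from -0.021 to 0.15 for Lif, -0.57 to 0.36 for Ccl7, -1.41 to 3.80 for Cxcl1 and -1.87 to 0.061 for Cxcl5. Both compounds against SRT1720 ranged from -0.049 to 0.15 for Lif, and against control from -0.31 to 0.52 for Ccl2 and -0.52 to 0.17 for Ccl7. The interaction ranged from -1.17 to 0.0030 for Ccl2, -1.24 to 3.97 for Cxcl1 and -2.38 to 0.047 for Cxcl5. The Cxcl1 values are fitted to a handful of reads and are no folds.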

Other observations

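Cytokines and chemokines beyond the 10 members were mostly low in these fibroblasts, and of those named here Csf2 and Il1rn had their highest levels in the group with both compounds. Of 28 tested, 5 rose and 0 fell after RSL3 in edgeR, 2 rose after SRT1720 (0 fell), and with both compounds 5 were higher and 4 lower than with RSL3, 4 and 1 than with SRT1720, and 7 and 2 than in control. The shares of all genes called higher and lower were 18.3% and 17.5% after RSL3, 1.1% and 0.206% after SRT1720, and for both compounds 11.4% and 8.75%, 12.3% and 9.06%, and 17.4% and 14.1% in the same order, so the number that rose after RSL3 was near the background. Clcf1, a cytokine of the interleukin-6 family, was at 50.4 ± 3.50 CPM in control, 62.2 ± 1.05 with SRT1720, 241.7 ± 27.1 with RSL3 and 142.9 ± 3.76 with both (SD, n = 2), with an interaction of -1.06 ± 0.15 (edgeR adjusted p = 0.00396). Tnfsf9, a ligand of the TNF family, was at 5.08 ± 1.25, 8.67 ± 0.407, 26.0 ± 5.16 and 17.4 ± 0.413 CPM in the same order, with an interaction of -1.35 ± 0.27 (edgeR adjusted p = 0.018).

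Csf2, which encodes the growth factor GM-CSF, was at 0.300 and 0 CPM in control, 1.48 and 0.662 with SRT1720, 0.788 and 0.105 with RSL3, and 5.29 and 7.78 with both compounds. The combination lay above all other libraries, at 3.85 ± 0.68 on the log2 scale against RSL3 (edgeR adjusted p = 0.00439). Il1rn, the interleukin-1 receptor antagonist, was at 0.174 ± 0.0579, 1.20 ± 0.679, 1.35 ± 0.121 and 3.89 ± 0.780 CPM, and with both compounds was above control (4.44 ± 0.50, edgeR adjusted p = 0.000175). Ccl20, which attracts cells with CCR6, was at 0.152 ± 0.0892, 1.29 ± 0.328, 0.132 ± 0.0370 and 0.677 ± 0.171 CPM, and was higher after SRT1720 (3.03 ± 0.52, edgeR adjusted p = 0.0245). Cxcl2, the neighbour of Cxcl1, was at 0.609 and 0.265 CPM in control, 1.23 and 1.85 with SRT1720, 0.210 and 0 with RSL3 and 1.496 and 0.960 with both compounds, which stood above RSL3 (3.47 ± 0.79, edgeR adjusted p = 0.0143). The values of Csf2, Il1rn, Ccl20 and Cxcl2 rest on few reads.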
